A study of Nicotiana tabacum with 6 samples.

Results

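Microtubules, the motors that move along them and the proteins that build and pattern them were followed in the transcriptome of tobacco explants. The members are the 300 loci, of 39825 in the expression table, whose protein description names a tubulin, a kinesin, a microtubule or spindle protein, katanin, SPIRAL1, TPX2, WVD2, an augmin subunit or an Aurora kinase. Of the 300, 273 had a mean expression of at least 0.5 FPKM (fragment counts scaled for transcript length and library size) and were tested. The other 27 were not tested. None of the 27 was at 0 in every library, their highest single value was 1.17 FPKM, and 15 of them are described as kinesins. On either side of the 0.5 FPKM limit, the nearest members left out averaged 0.458, 0.48 and 0.485 FPKM, and the nearest members kept averaged 0.593, 0.615 and 0.623 FPKM.

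Explants were kept for 2 weeks on a medium containing either 0.5 mg/L or 0.1 mg/L of the synthetic auxin naphthaleneacetic acid (NAA), about 80 explants were harvested, and 3 RNA-seq libraries represent each concentration. In the study's procedure explants are cotyledon pieces of seedlings and the callus medium also holds the cytokinin 6-benzyladenine and the antibiotics kanamycin and Timentin at both concentrations, and whether the explants of these libraries were infected with Agrobacterium beforehand is not stated. The libraries were made to set transcript levels beside chromatin accessibility in the same batch of explants at the higher and the lower auxin concentration. Per the labels the species is Nicotiana tabacum, whereas the study describes Nicotiana benthamiana, and locus names follow the N. benthamiana assembly Niben261. The libraries are bulk samples, so fewer cells of a type and less RNA per cell cannot be told apart.

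Microtubules are hollow polymers of alpha- and beta-tubulin pairs, started from rings of gamma-tubulin. In interphase plant cells they lie under the plasma membrane, where this cortical array guides cellulose deposition and so the direction of growth. In dividing cells they form the preprophase band, the spindle and the phragmoplast, the structure in which the cell plate is laid down.

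Library totals were 986722 to 1015420 FPKM at 0.5 mg/L NAA and 1140994 to 1155639 FPKM at 0.1 mg/L NAA. The members made up 0.65% to 0.691% of the total at 0.5 mg/L and 0.669% to 0.692% at 0.1 mg/L. The number of reads is unknown, but the steps between low values gave replicate 3 of the 0.1 mg/L treatment a relative depth of 0.74, against 0.979 to 1.04 in the others, and it had 3983 loci at 0 against 3311 to 3528. With totals made equal between libraries (rescaling to one total), the fold changes shifted, and the median log2 fold change (log2FC) of all loci was 0.19, against 0.02 as deposited. A small difference in FPKM is therefore sensitive to that scaling. For single loci, directions below held under all 3 scalings tried (rescaling to one total, median-of-ratios and quantile normalization) unless stated, and counts under rescaling to one total are given beside those of classes whose balance it moved. Loci of like description in one family can share reads where their sequences are near-identical, and their separate values are uncertain to that extent.

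Shares of members past the test were near or below those of the whole transcriptome. With log2FC computed on FPKM + 1, a |log2FC| of 1 or more and adjusted p below 0.05 as thresholds, 1 member was higher and 6 were lower at 0.5 mg/L NAA. The background over all 32443 loci tested was 3.24% higher and 2.62% lower. By adjusted p alone 50 members were higher and 49 lower, against backgrounds of 21.7% and 20.2%. That balance moved with the scaling, to 91 higher and 28 lower with libraries rescaled to one total and 32 higher and 57 lower after quantile normalization. All 32443 loci moved as well, to 11113 higher and 3954 lower with libraries rescaled to one total and 6089 and 6377 after quantile normalization. At an unadjusted p under 0.05 limma gave 68 higher and 58 lower members, against 8604 and 7878 of all 32443 loci. Counts of classes below, under each scaling and at that unadjusted p, stand against these backgrounds of all loci. The 3 libraries of each treatment did not overlap for 80 members that were higher and 70 that were lower, against backgrounds of 28.8% and 25.9%. The median log2FC of the members was 0.04 and that of all loci 0.02. The adjusted p-values come from limma and measure the spread among libraries of one batch of explants. An exact permutation test of 3 libraries against 3 cannot give a two-sided p below 0.1. Of the 99 members past adjusted p, 23 of the higher and 27 of the lower ones stayed past it under every alternative in which they were tested. These are described below as stable.

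**Figure D1:**
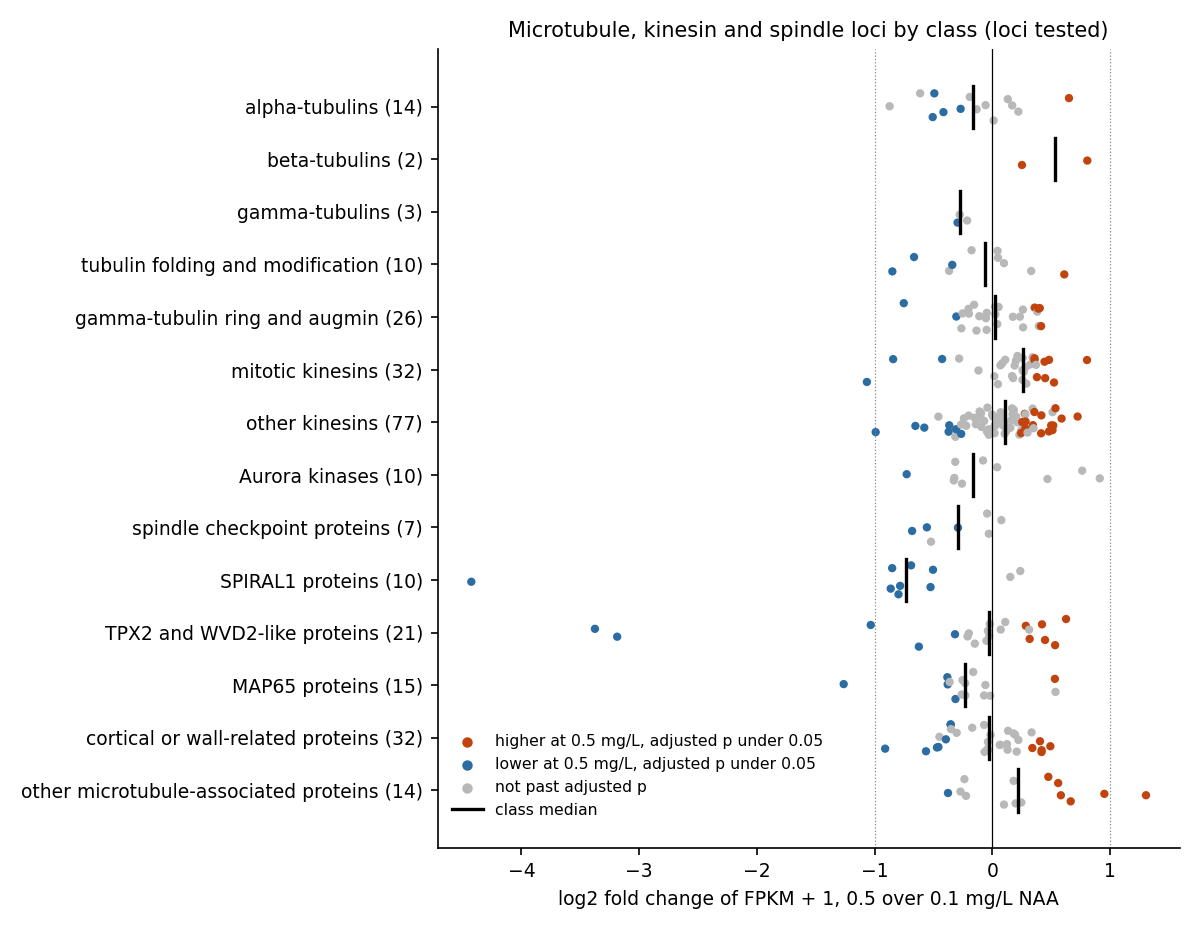
Log2 fold change (0.5 over 0.1 mg/L NAA, FPKM + 1) of each tested locus on the horizontal axis, by class on the vertical axis with the number tested in parentheses. Bars mark class medians, colours mark loci past adjusted p and dotted lines mark a log2FC of 1 in either direction. The SPIRAL1 class has the lowest median, -0.74, and 3 loci of the SPIRAL1 and TPX2 classes stand far to the left of all others.

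Tubulins held 42.5% to 42.9% of the members' summed FPKM at 0.5 mg/L NAA and 40.4% to 40.6% at 0.1 mg/L NAA. Of 14 alpha-tubulin loci tested 4 were lower and 1 was higher by adjusted p (2 lower and 3 higher with libraries rescaled to one total). Only 2 loci are described as beta-tubulins, the partners of alpha-tubulin in the polymer, and both were higher under every scaling. No tubulin passed the fold threshold.

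Most alpha-tubulin signal came from 2 loci described as alpha-2 chain-like. The higher of them, Niben261Chr01g1056004, read 1037, 1029 and 908 FPKM at 0.5 mg/L NAA and 1201, 1184 and 1191 FPKM at 0.1 mg/L NAA. Its log2FC was -0.27 (SE 0.09, adjusted p = 0.038). This call was lost under several alternatives. With libraries rescaled to one total the log2FC was -0.08 and after quantile normalization 0.06, and without replicate 1, 2 or 3 of the 0.1 mg/L treatment the adjusted p was 0.14, 0.11 or 0.088. The other, Niben261Chr04g0373007, read 860, 925 and 782 FPKM at 0.5 mg/L NAA and 927, 913 and 966 FPKM at 0.1 mg/L NAA, and its treatments overlapped. It did not pass the test (log2FC -0.13, adjusted p = 0.26), and its sign turned with libraries rescaled to one total (0.06) and after quantile normalization (0.23). Smaller alpha-tubulin loci differed more. Niben261Chr11g0743005, an alpha chain, read 150, 143 and 126 FPKM at 0.5 mg/L NAA and 207, 194 and 194 FPKM at 0.1 mg/L NAA (log2FC -0.51, SE 0.08, adjusted p = 0.003), and Niben261Chr07g1460007 had a log2FC of -0.49. Both falls were stable and neither locus had overlapping treatments. One locus called alpha-tubulin-like, Niben261Chr13g0566009, rose to 35.8, 42.8 and 32.4 FPKM at 0.5 mg/L NAA, against 24.0, 19.8 and 25.8 FPKM at 0.1 mg/L NAA (log2FC 0.65, adjusted p = 0.0068). The alpha-5 chain pair did not pass the test.

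The beta-1 chain, Niben261Chr03g0152007, read 193, 201 and 236 FPKM at 0.5 mg/L NAA and 126, 120 and 113 FPKM at 0.1 mg/L NAA. Every 0.5 mg/L library lay above every 0.1 mg/L library, and the rise was stable (log2FC 0.81, SE 0.09, adjusted p = 0.00081). The beta-2 chain, Niben261Chr01g1769004, read 153, 134 and 140 FPKM at 0.5 mg/L NAA and 119, 118 and 121 FPKM at 0.1 mg/L NAA (log2FC 0.25, adjusted p = 0.025). Its adjusted p was 0.054 without replicate 1 of the 0.5 mg/L treatment and 0.087, 0.087 and 0.057 without replicates 1, 2 and 3 of the 0.1 mg/L treatment. Summed over their loci, alpha-tubulins stood at 2345 to 2654 FPKM at 0.5 mg/L NAA and 2872 to 2925 FPKM at 0.1 mg/L NAA. The 2 described beta-tubulins stood at 335 to 376 FPKM at 0.5 mg/L NAA and 234 to 245 FPKM at 0.1 mg/L NAA. That sum is far below the alpha-tubulin sum although the polymer holds pairs of both. The 2 loci therefore cannot stand for beta-tubulin as a whole. Library totals were also lower at 0.5 mg/L NAA. With libraries rescaled to one total the median log2FC was -0.01 for alpha-tubulins and 0.72 for beta-tubulins, against -0.16 and 0.53 as deposited.

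Tubulin-folding cofactors, which hold and assemble the tubulin pair, moved in both directions. Cofactor A, a chaperone of beta-tubulin, fell to 96.2, 97.9 and 89.4 FPKM at 0.5 mg/L NAA, against 175, 179 and 159 FPKM at 0.1 mg/L NAA (Niben261Chr09g0518011, log2FC -0.85, SE 0.07, adjusted p = 0.00037). Its treatments were widely separated, while the beta-1 chain stood at the higher level in the same libraries. Cofactor B, which binds alpha-tubulin, had 3 loci. Niben261Chr08g0328006 read 23.3, 20.2 and 19.2 FPKM at 0.5 mg/L NAA and 34.3, 31.5 and 35.1 FPKM at 0.1 mg/L NAA, a stable fall (log2FC -0.66, adjusted p = 0.0016). Its neighbour by identifier, Niben261Chr08g0328007, did not pass the test (log2FC -0.18, adjusted p = 0.14, and 0.01 as log2FC with libraries rescaled to one total). The third, Niben261Chr06g0659007, had a log2FC of -0.34 (adjusted p = 0.019, 0.072 without replicate 1 and 0.059 without replicate 3 of the 0.1 mg/L treatment, and 0.18 with libraries rescaled to one total). A cofactor D-like locus, of the step that releases the finished pair, rose, averaging 9.61 ± 0.62 FPKM at 0.5 mg/L NAA and 5.95 ± 0.50 FPKM at 0.1 mg/L NAA (SD, n = 3 each, Niben261Chr09g1198009, log2FC 0.61, adjusted p = 0.003).

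Nucleation factors changed little as a class. Of 26 loci of the gamma-tubulin ring and the augmin complex, 4 were higher and 2 lower by adjusted p, with a median log2FC of 0.02. Rescaling to one total gave 8 higher and 1 lower. The 7 gamma-tubulin complex components tested gave 0 calls with limma, 2 higher at an unadjusted p under 0.05 and 3 higher without overlap of the treatments. Of all 32443 loci, 8604 were higher at that unadjusted p, and 28.8% were higher without overlap. The largest difference was in a mitotic-spindle organizing protein 1B-like locus, a small protein of the gamma-tubulin ring, which also had the highest mean FPKM of the class. Niben261Chr08g0358010 fell to 35.8, 33.4 and 32.5 FPKM at 0.5 mg/L NAA, against 58.3, 58.9 and 56.0 FPKM at 0.1 mg/L NAA (log2FC -0.75, SE 0.07, adjusted p = 0.00041). Augmin brings gamma-tubulin to existing microtubules so that new ones branch off. Of 4 loci described as augmin subunit 6, 3 were higher by adjusted p, with log2FC from 0.36 to 0.41, and the treatments of all 4 were separate. Only Niben261Chr01g0674011 of these was stable, at 8.47, 8.62 and 7.71 FPKM at 0.5 mg/L NAA and 5.63, 5.93 and 6.29 FPKM at 0.1 mg/L NAA. Gamma-tubulin itself, at Niben261Chr08g0291018, had a log2FC of -0.29 (adjusted p = 0.044), and its adjusted p was between 0.081 and 0.12 without any one library other than replicate 1 of the 0.5 mg/L treatment.

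Among the kinesins with named roles in cell division, 8 were higher and 3 lower of 32 tested, by adjusted p. Their median log2FC was 0.26, and the treatments did not overlap for 20 higher and 3 lower loci (62.5% and 9.38%, against 28.8% and 25.9% of all loci). All the same, their summed FPKM as deposited was 224 to 247 at 0.5 mg/L NAA and 229 to 235 at 0.1 mg/L NAA. The loci that fell included the most abundant one, KIN-10B, and library totals were lower at 0.5 mg/L NAA. With libraries rescaled to one total 21 of these kinesins were higher and 2 lower, against 11113 and 3954 of all 32443 loci. After quantile normalization 4 were higher and 3 lower, against 6089 and 6377 of all loci.

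Kinesins of the phragmoplast were on the higher side. Phragmoplast orienting kinesin 2, which in Arabidopsis helps to keep the division plane, rose at 2 of its 5 tested loci. Niben261Chr03g1073004 read 2.25, 2.97 and 2.19 FPKM at 0.5 mg/L NAA and 1.00, 0.97 and 0.96 FPKM at 0.1 mg/L NAA (log2FC 0.80, SE 0.14, adjusted p = 0.0039). Niben261Chr09g1305019 read 3.89, 3.63 and 3.96 FPKM at 0.5 mg/L NAA and 2.19, 2.53 and 2.35 FPKM at 0.1 mg/L NAA (log2FC 0.52, adjusted p = 0.0085). Both were stable and low in level. Over the 12 tested loci of the KIN-12 and phragmoplast orienting group 4 were higher by adjusted p (33.3%, against 21.7% of all loci). For 10 loci the libraries were higher at 0.5 mg/L without overlap (83.3%, against 28.8% of all loci). This group was formed after the values were seen, and its shares are a description only. At an unadjusted p under 0.05 limma gave 7 higher and 0 lower, against 8604 and 7878 of all 32443 loci. The count by adjusted p was 10 higher with libraries rescaled to one total and 2 higher after quantile normalization. Their summed FPKM was 58.9 to 64.5 at 0.5 mg/L NAA and 43.9 to 49.1 at 0.1 mg/L NAA.

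NACK1, the tobacco kinesin that activates a MAP kinase cascade for cell plate expansion, was higher at both loci. Niben261Chr06g1164009 read 9.49, 7.54 and 8.87 FPKM at 0.5 mg/L NAA and 6.2, 5.65 and 6.34 FPKM at 0.1 mg/L NAA (log2FC 0.44, adjusted p = 0.016, and 0.061 without replicate 2 of the 0.1 mg/L treatment). Niben261Chr08g0102001 had a log2FC of 0.36 (adjusted p = 0.034), and its adjusted p was 0.066 to 0.11 without replicate 1 or 2 of either treatment. Its relative NACK2 went the other way at 1 of 2 tested loci. There, Niben261Chr16g0034004 fell to 5.45, 6.42 and 5.90 FPKM at 0.5 mg/L NAA, against 10.6, 10.9 and 12.7 FPKM at 0.1 mg/L NAA (log2FC -0.84, SE 0.11, adjusted p = 0.0011). The second NACK2 locus, Niben261Chr19g0109005, overlapped between treatments (log2FC 0.07, adjusted p = 0.68, and -0.04 as log2FC after quantile normalization). TKRP125 and KIN-5 proteins, motors of the kinesin-5 family that slide antiparallel microtubules in spindle and phragmoplast, were higher at 2 of 11 tested loci. This was 18.2%, against 21.7% of all loci. Rescaling to one total gave 7 higher and quantile normalization 1. The stable one of the 2, Niben261Chr10g1128003, read 24.9, 23.2 and 29.6 FPKM at 0.5 mg/L NAA and 19.4, 17.1 and 18.02 FPKM at 0.1 mg/L NAA (log2FC 0.48, adjusted p = 0.0091).

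KIN-10B, a member of the kinesin-10 family, was the only kinesin past both thresholds. Niben261Chr12g0301030 read 30.8, 23.5 and 20.2 FPKM at 0.5 mg/L NAA and 53.8, 59.1 and 44.9 FPKM at 0.1 mg/L NAA (log2FC -1.07, SE 0.16, adjusted p = 0.0022). Every 0.5 mg/L library was below the lowest 0.1 mg/L library, and the mean was 2.12 times as high at 0.1 mg/L. The second KIN-10B locus, Niben261Chr16g0928009, read 9.67, 10.3 and 8.31 FPKM at 0.5 mg/L NAA and 11.9, 13.3 and 13.7 FPKM at 0.1 mg/L NAA. Its log2FC of -0.43 passed adjusted p (0.016), but gave 0.058 without replicate 2 and 0.056 without replicate 3 of the 0.1 mg/L treatment, and 0.083 with libraries rescaled to one total. The 3 KIN-10A loci did not pass, with log2FC from 0.02 to 0.29.

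**Figure D2:**
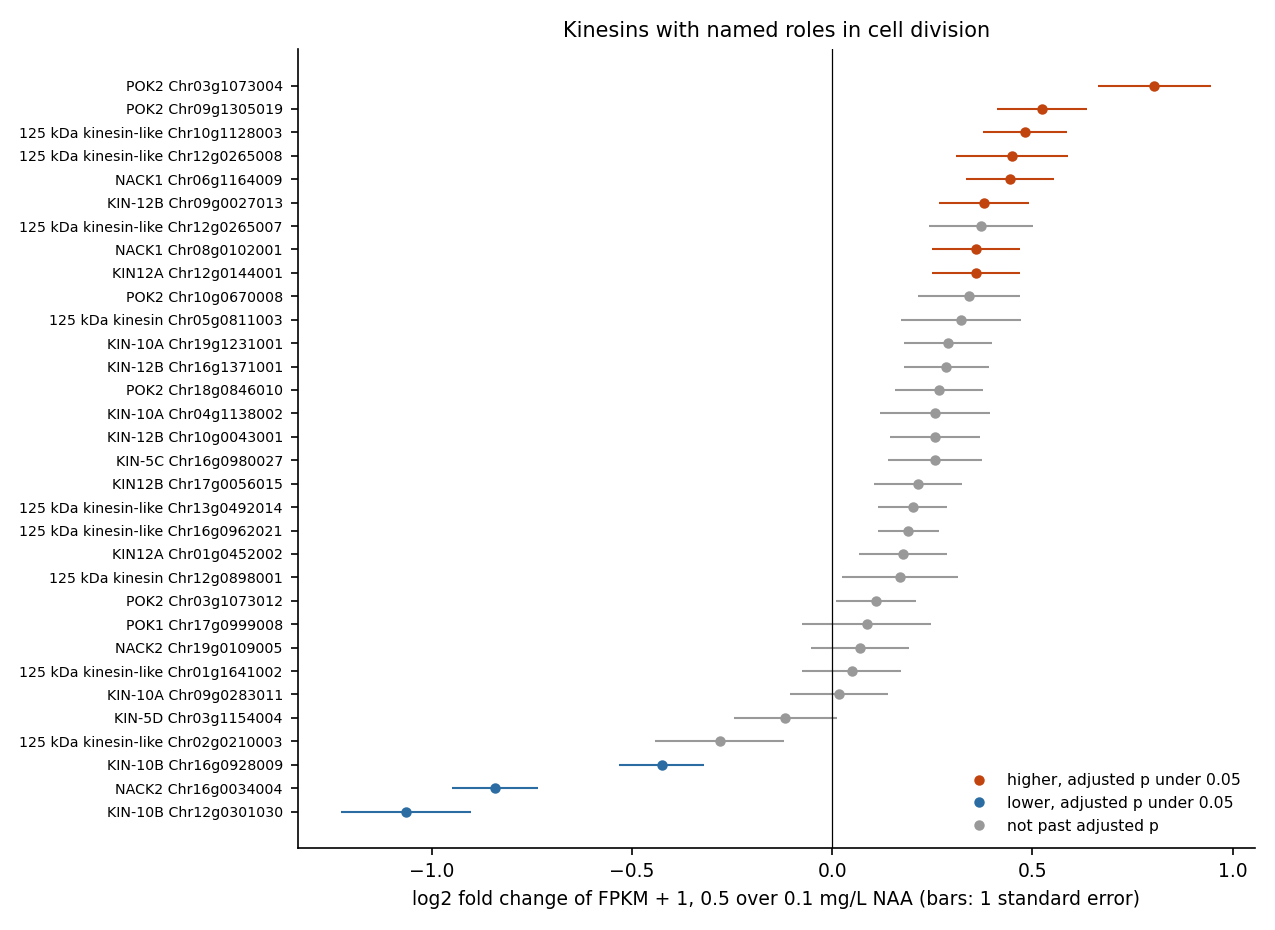
Log2 fold change (0.5 over 0.1 mg/L NAA, FPKM + 1) of the 32 tested kinesins with named roles in cell division on the horizontal axis, 1 locus per line, with bars of 1 standard error. Most points lie a little right of 0, 8 of them past adjusted p, while both KIN-10B loci and 1 NACK2 locus lie to the left.

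The remaining 77 tested kinesins had 16 higher and 7 lower loci by adjusted p (20.8% and 9.09%, against 21.7% and 20.2% of all loci). None of them was past the fold threshold, and the median log2FC was 0.10. The counts were 26 higher and 3 lower with libraries rescaled to one total, and after quantile normalization 8 were higher and 8 lower. KIN-14F, of the family of kinesins that move to the minus end, was lower at both its loci. Niben261Chr01g0499010 read 14.8, 11.8 and 7.65 FPKM at 0.5 mg/L NAA and 22.9, 23.2 and 22.8 FPKM at 0.1 mg/L NAA (log2FC -0.99, SE 0.20, adjusted p = 0.0066), and Niben261Chr06g1034007 had a log2FC of -0.58 (adjusted p = 0.0045). The 0.1 mg/L libraries of the first were nearly equal, and the 0.5 mg/L ones ranged widely below them. A kinesin-4-like locus, Niben261Chr15g1516014, had the lowest p of the class. It fell to 15.9, 16.1 and 12.97 FPKM at 0.5 mg/L NAA, against 24.9, 24.9 and 22.4 FPKM at 0.1 mg/L NAA (log2FC -0.65, adjusted p = 0.0026).

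Stable rises in this class came from Niben261Chr06g0821005, described after the animal chromosome motor KIF22 (log2FC 0.51), from KIFC3 at Niben261Chr09g0999012 (0.42), from KIN-7D at Niben261Chr18g1348001 (0.48), from KCA2 at Niben261Chr06g0213001 (0.52), and from a PSS1-like kinesin-1 at Niben261Chr10g0401022 (0.72). The KIF22-like locus read 14.4, 15.3 and 14.6 FPKM at 0.5 mg/L NAA and 10.2, 9.49 and 10.5 FPKM at 0.1 mg/L NAA. KCA2, whose Arabidopsis relatives take part in chloroplast positioning, read 19.6, 16.7 and 21.6 FPKM at 0.5 mg/L NAA and 13.1, 12.8 and 13.5 FPKM at 0.1 mg/L NAA. PSS1 is a rice kinesin of male meiosis, and the PSS1-like locus was low in every library, at 1.34, 1.08 and 1.04 FPKM at 0.5 mg/L NAA and 0.39, 0.40 and 0.13 FPKM at 0.1 mg/L NAA. The filter at a mean of 1 FPKM left it out, and it kept its call in the 13 alternatives that tested it. The class's most abundant locus, KIN-7K at Niben261Chr18g1243005, did not pass the test (28.5 ± 4.04 FPKM at 0.5 mg/L NAA and 24.9 ± 0.68 FPKM at 0.1 mg/L NAA, SD, n = 3 each, log2FC 0.18, adjusted p = 0.22).

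Spindle checkpoint proteins delay chromosome separation until every chromosome is attached. Of 7 checkpoint and attachment loci tested 3 were lower by adjusted p, with a median log2FC of -0.29. At an unadjusted p under 0.05 limma gave 4 lower and 0 higher, against 7878 and 8604 of all 32443 loci. Rescaling to one total left 2 lower. MAD2, which holds back anaphase until chromosomes are attached, fell to 35.3, 26.4 and 29.1 FPKM at 0.5 mg/L NAA, against 47.5, 39.7 and 47.2 FPKM at 0.1 mg/L NAA (Niben261Chr01g1437003, log2FC -0.56, SE 0.12, adjusted p = 0.0096). A homologue of SKA1, a kinetochore protein known from animals, fell to 7.22, 5.71 and 5.99 FPKM at 0.5 mg/L NAA, against 9.34, 9.34 and 13.9 FPKM at 0.1 mg/L NAA (Niben261Chr07g0007009, log2FC -0.68, adjusted p = 0.014). Both were stable and neither overlapped. One BUBR1 locus, Niben261Chr03g0215017, had a log2FC of -0.29 (adjusted p = 0.031), which rose to 0.33 with libraries rescaled to one total and lay between 0.053 and 0.097 without any one library other than replicate 2 of the 0.1 mg/L treatment.

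Aurora kinases, which in Arabidopsis act at the spindle and the cell plate, had 1 lower locus of 10 tested by adjusted p, against 1 higher and 0 lower with libraries rescaled to one total. The abundant Aurora-2-like locus Niben261Chr03g1555003 read 31.2, 30.4 and 29.2 FPKM at 0.5 mg/L NAA and 28.4, 29.7 and 30.1 FPKM at 0.1 mg/L NAA (log2FC 0.04, SE 0.07), and rescaling to one total gave 0.23 (adjusted p = 0.027). The one call, Niben261Chr14g1034017, read 6.83, 5.86 and 4.39 FPKM at 0.5 mg/L NAA and 9.68, 7.49 and 13.5 FPKM at 0.1 mg/L NAA (log2FC -0.73, adjusted p = 0.03). It was lost without replicate 3 of the 0.5 mg/L treatment (adjusted p = 0.087) or replicate 1 or 3 of the 0.1 mg/L treatment (0.078 and 0.084), and its neighbour by identifier, Niben261Chr14g1034016, had a log2FC of 0.91 that did not pass (adjusted p = 0.17).

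SPIRAL1 proteins, small plus-end proteins that in Arabidopsis keep the cortical array transverse and organs growing straight, were mostly lower. By adjusted p 8 of 10 tested loci were lower and 7 of the 8 falls were stable, while limma gave 0 higher loci also at an unadjusted p under 0.05. The median log2FC was -0.74, and -0.54 with libraries rescaled to one total and -0.41 after quantile normalization, which kept 7 of the 8 calls. The summed FPKM of the family was 878 to 1086 at 0.5 mg/L NAA and 1637 to 1643 at 0.1 mg/L NAA. The treatments were thus far apart beside the spread among their libraries.

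The most abundant member, SPIRAL1-like 1 at Niben261Chr03g1006008, fell to 200.2, 224 and 185 FPKM at 0.5 mg/L NAA, against 329, 323 and 331 FPKM at 0.1 mg/L NAA (log2FC -0.69, SE 0.08, adjusted p = 0.00094). SPIRAL1-like 3 at Niben261Chr16g0485002 read 158, 169 and 137 FPKM at 0.5 mg/L NAA and 279, 293 and 271 FPKM at 0.1 mg/L NAA (log2FC -0.86, adjusted p = 0.00064). The other 5 abundant SPIRAL1-like 1 and 3 loci had log2FC between -0.85 and -0.50, all without overlap of the treatments.

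A SPIRAL1-like 5 locus, Niben261Chr14g1475003, gave the largest difference of all members. It read 0.84, 0.43 and 0.42 FPKM at 0.5 mg/L NAA and 31.1, 38.8 and 27.99 FPKM at 0.1 mg/L NAA. The mean was 57.9 times as high at 0.1 mg/L, and log2FC on FPKM + 1 was -4.42 (SE 0.16, adjusted p = 2.6e-05). Its libraries at 0.5 mg/L NAA were all under 1 FPKM. The exceptions in the family were 2 weakly expressed loci next to each other by identifier, Niben261Chr06g1109019 and Niben261Chr06g1109020, with log2FC of 0.15 and 0.24 and overlapping treatments. Neither passed the test, with adjusted p of 0.63 and 0.57.

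**Figure D3:**
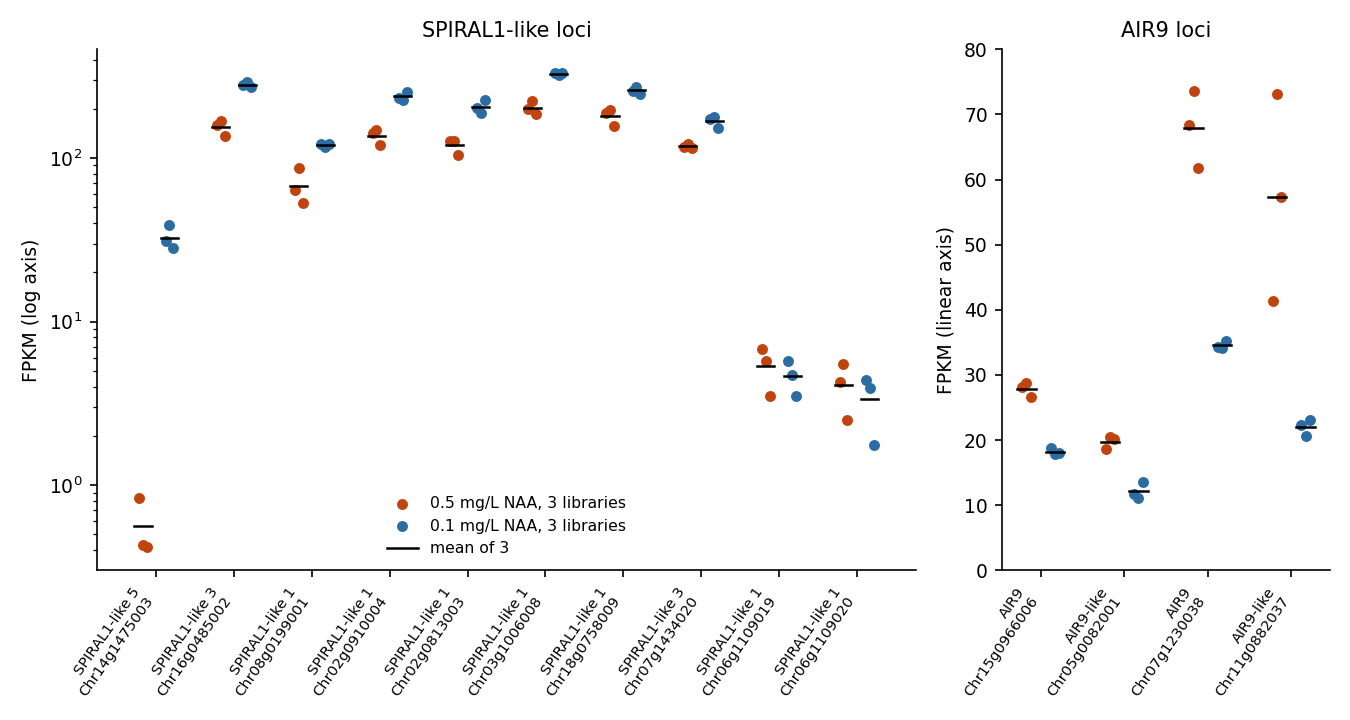
FPKM in each library for the 10 tested SPIRAL1-like loci (left, log axis) and the 4 AIR9 loci (right, linear axis), with 0.5 mg/L NAA left of 0.1 mg/L NAA at each locus and bars at the mean of 3 libraries. The 8 SPIRAL1-like loci that passed the test lie lower at 0.5 mg/L NAA, and all 4 AIR9 loci lie higher, without overlap.

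AIR9, a large microtubule-associated protein that in Arabidopsis marks the preprophase band and the site where the cell plate meets the wall, was higher throughout. All 4 loci rose by adjusted p, all 4 were stable and none overlapped. Niben261Chr11g0882037, AIR9-like, was the only member past both thresholds in that direction. It read 41.4, 73.1 and 57.3 FPKM at 0.5 mg/L NAA and 22.3, 20.6 and 23.1 FPKM at 0.1 mg/L NAA (log2FC 1.31, SE 0.18, adjusted p = 0.0017). Its 0.5 mg/L libraries varied widely, and the lowest was still above the highest 0.1 mg/L library. Niben261Chr07g1230038 read 68.3, 73.6 and 61.8 FPKM at 0.5 mg/L NAA and 34.3, 34.1 and 35.2 FPKM at 0.1 mg/L NAA (log2FC 0.95, adjusted p = 0.00031). The others, Niben261Chr05g0082001 and Niben261Chr15g0966006, had log2FC of 0.67 and 0.58. Summed over the family, FPKM was 157 to 196 at 0.5 mg/L NAA and 83.7 to 89.9 at 0.1 mg/L NAA.

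TPX2, a spindle assembly factor and activator of Aurora kinase, gave the next largest differences after SPIRAL1-like 5, but only at 2 of 8 loci. Niben261Chr11g1393005 read 0.71, 1.27 and 0.35 FPKM at 0.5 mg/L NAA and 15.9, 17.6 and 17.6 FPKM at 0.1 mg/L NAA (log2FC -3.38, SE 0.19, adjusted p = 8.2e-05). Niben261Chr05g0602006 read 1.2, 0.83 and 0.13 FPKM at 0.5 mg/L NAA and 12.2, 14.3 and 15.96 FPKM at 0.1 mg/L NAA (log2FC -3.19, SE 0.24, adjusted p = 0.00023). Their means were 21.9 and 19.7 times as high at 0.1 mg/L. The other 6 TPX2 loci had log2FC between -0.20 and 0.42, and 2 of them rose by adjusted p. The stable rise was at Niben261Chr02g0596010, with 12.1, 10.8 and 9.94 FPKM at 0.5 mg/L NAA and 7.61, 8.26 and 7.77 FPKM at 0.1 mg/L NAA (log2FC 0.42, adjusted p = 0.012). No other TPX2 locus was lower by adjusted p.

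WVD2-like proteins, plant relatives of TPX2 that in Arabidopsis bundle cortical microtubules and affect the handedness of growth, were also split. Of 6 loci described as WVD2-like 7, 4 were higher and 1 lower by adjusted p. The lower one, Niben261Chr16g0390008, passed both thresholds, with 4.82, 3.91 and 4.10 FPKM at 0.5 mg/L NAA and 9.19, 7.5 and 13.4 FPKM at 0.1 mg/L NAA (log2FC -1.03, SE 0.19, adjusted p = 0.0049). The strongest rise, Niben261Chr11g1190009, read 8.58, 9.19 and 9.17 FPKM at 0.5 mg/L NAA and 5.70, 4.22 and 6.71 FPKM at 0.1 mg/L NAA (log2FC 0.63, adjusted p = 0.013), and the more abundant Niben261Chr02g0793009 had a log2FC of 0.45. WVD2-like 3 fell to 38.2, 36.5 and 34.6 FPKM at 0.5 mg/L NAA, against 58.4, 55.3 and 56.3 FPKM at 0.1 mg/L NAA (Niben261Chr10g0139008, log2FC -0.62, SE 0.07, adjusted p = 0.00069). The most abundant locus of the class, WVD2-like 2 at Niben261Chr09g1047006, did not pass (log2FC -0.15, adjusted p = 0.13), and its sign turned with libraries rescaled to one total (0.04).

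MAP65 proteins, which cross-link antiparallel microtubules, had 4 lower and 1 higher of 15 tested by adjusted p (1 and 1 with libraries rescaled to one total). MAP65-8 at Niben261Chr04g0630002 passed both thresholds. It read 2.69, 1.93 and 1.40 FPKM at 0.5 mg/L NAA and 5.57, 5.96 and 6.83 FPKM at 0.1 mg/L NAA (log2FC -1.26, SE 0.17, adjusted p = 0.0015), with every 0.5 mg/L library below the others. MAP65-1-like was lower at all 3 loci by 0.31 to 0.38 on the log2 scale as deposited. With libraries rescaled to one total these were no longer past adjusted p. MAP65-3, the MAP65 of the Arabidopsis phragmoplast midzone, passed at 0 of 5 tested loci with limma, also at an unadjusted p under 0.05, and after quantile normalization 1 was lower.

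**Figure D4:**
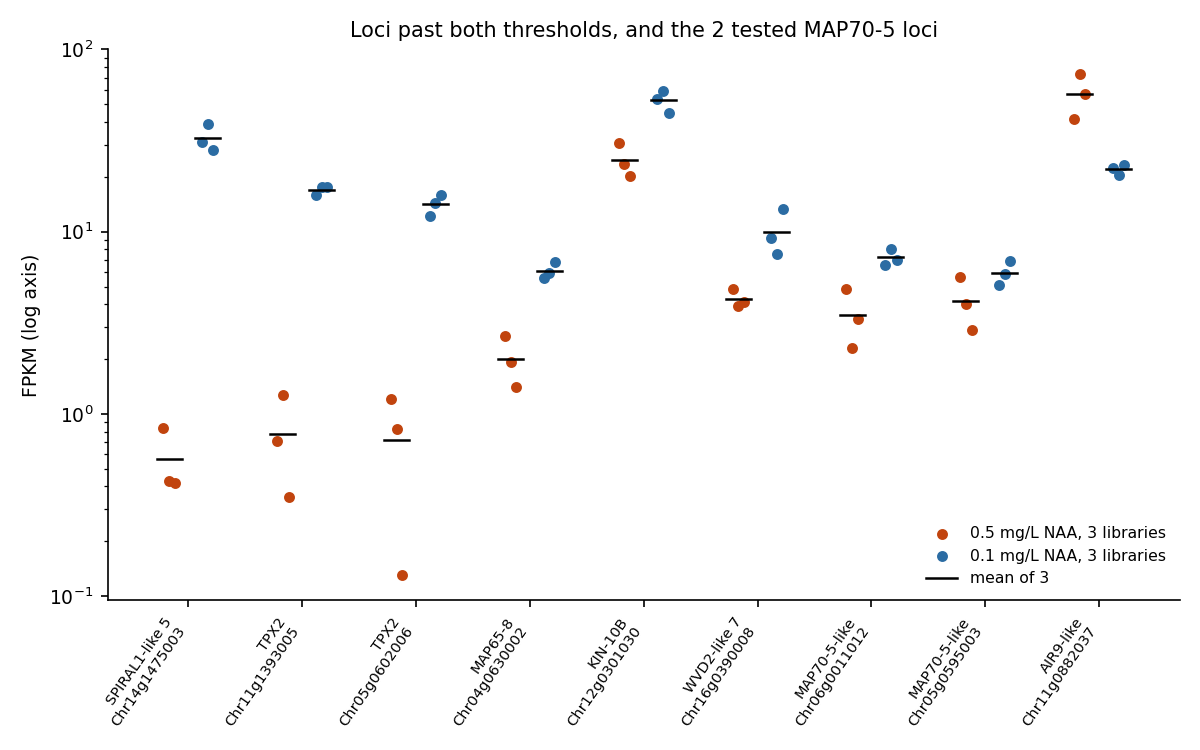
FPKM in each library (log axis) of the 7 loci past both thresholds and of the 2 tested MAP70-5 loci, with 0.5 mg/L NAA left of 0.1 mg/L NAA at each locus and bars at the mean of 3 libraries. SPIRAL1-like 5 and 2 TPX2 loci are near or under 1 FPKM at 0.5 mg/L NAA and above 12 FPKM at 0.1 mg/L NAA, and AIR9-like is the one locus that is higher at 0.5 mg/L.

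Proteins of the cortical array and of wall patterning were balanced as a class, with 5 higher and 7 lower of 32 tested by adjusted p and a median log2FC of -0.02. Rescaling to one total gave 12 higher and 3 lower and a median of 0.16. MAP70-5, which in Arabidopsis xylem borders the secondary wall bands, was the largest difference. Niben261Chr06g0011012 fell to 4.87, 2.29 and 3.31 FPKM at 0.5 mg/L NAA, against 6.59, 8.07 and 7.02 FPKM at 0.1 mg/L NAA (log2FC -0.91, SE 0.21, adjusted p = 0.011). The second tested MAP70-5 locus, Niben261Chr05g0595003, read 5.65, 4.02 and 2.89 FPKM at 0.5 mg/L NAA and 5.07, 5.86 and 6.93 FPKM at 0.1 mg/L NAA. Its treatments overlapped, and it did not pass (log2FC -0.45, adjusted p = 0.12).

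Katanin, the enzyme that severs microtubules, was lower in part of its p60 subunits. Of 4 loci described as p60 subunit A-like 2, 3 were lower by adjusted p, and their summed FPKM was 44.5 to 54.2 at 0.5 mg/L NAA and 65.5 to 72.7 at 0.1 mg/L NAA. The fall was stable at Niben261Chr04g0418021, with 13.1, 11.4 and 13.3 FPKM at 0.5 mg/L NAA and 18.5, 19.7 and 19.1 FPKM at 0.1 mg/L NAA (log2FC -0.56, SE 0.09, adjusted p = 0.0023), and at Niben261Chr07g1232004 (log2FC -0.47). At Niben261Chr15g0959006, the most abundant locus of the class, a log2FC of -0.39 (adjusted p = 0.035) was lost without replicate 2 of the 0.5 mg/L treatment (0.058), without replicate 1 or 3 of the 0.1 mg/L treatment (0.095 and 0.11) and with libraries rescaled to one total (0.22). The p80 subunit, which targets katanin, had 1 higher and 1 lower of 5 tested loci by adjusted p. The rise was stable, at Niben261Chr07g1344002, to 11.99, 10.9 and 11.5 FPKM at 0.5 mg/L NAA, against 7.43, 7.71 and 8.42 FPKM at 0.1 mg/L NAA (log2FC 0.49, adjusted p = 0.0045). The fall, at Niben261Chr11g1163006 (log2FC -0.46), was not stable. MAP70-2-like at Niben261Chr11g1287016 rose with a log2FC of 0.34 (adjusted p = 0.01). Calls at TORTIFOLIA1 loci, 2 higher and 1 lower of 8, were not stable.

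A locus described only as microtubule-associated protein, Niben261Scf09010g0000007, was the most abundant of the other associated proteins. It read 83.9, 79.7 and 81.2 FPKM at 0.5 mg/L NAA and 57.2, 57.1 and 60.8 FPKM at 0.1 mg/L NAA (log2FC 0.48, SE 0.06, adjusted p = 0.0013). The replicates of each treatment were close together, and the rise was stable. A homologue of the animal spindle pole protein ASPM, Niben261Chr07g1378005, also rose, at 8.35, 8.83 and 8.09 FPKM at 0.5 mg/L NAA and 5.98, 5.27 and 4.96 FPKM at 0.1 mg/L NAA (log2FC 0.56, adjusted p = 0.0044).

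**Figure D5:**
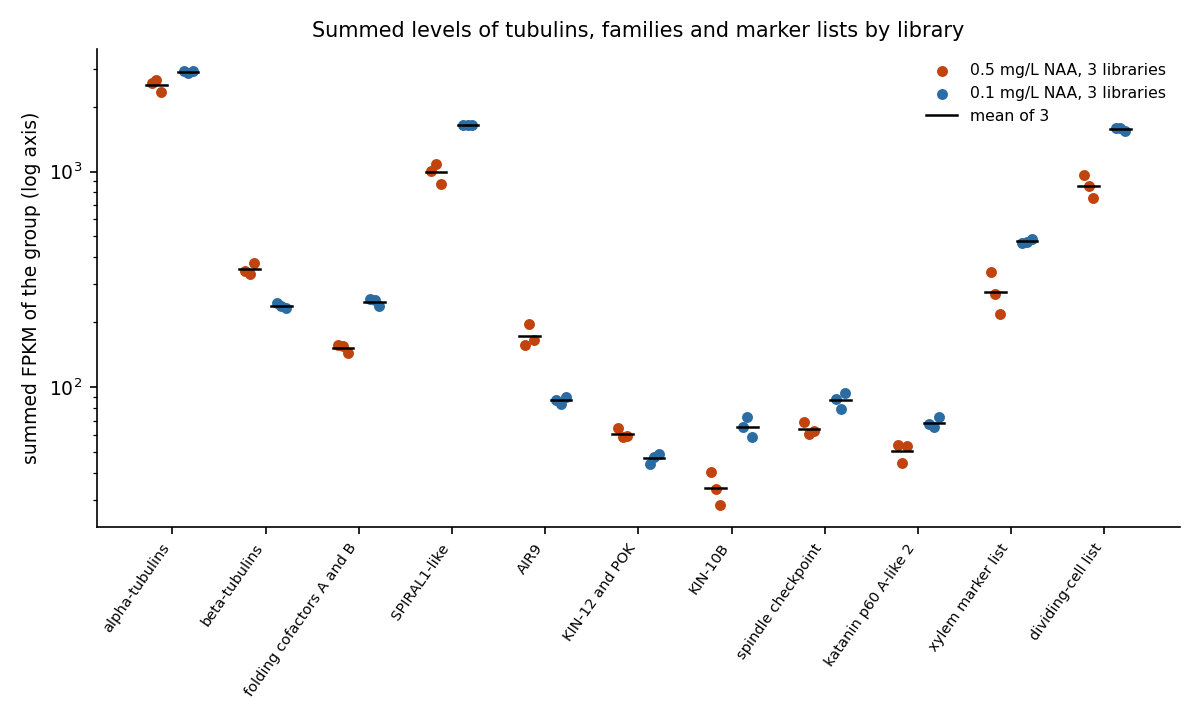
Summed FPKM (log axis) of tubulins, selected families and the xylem and dividing-cell marker lists in each library, with 0.5 mg/L NAA left of 0.1 mg/L NAA and bars at the mean of 3 libraries. In FPKM as deposited, the 2 described beta-tubulins, AIR9 and the KIN-12 and phragmoplast orienting kinesins are higher at 0.5 mg/L NAA. The other groups shown are lower. Library totals are also lower at 0.5 mg/L NAA, and the alpha-tubulin difference depends on the scaling.

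Loci with one description did not always share a call. There were 72 descriptions with at least 2 tested loci, 227 loci in all, and 48 of these had at least 1 call by adjusted p. In 7 every locus was called the same way, 3 higher and 4 lower, and in 4 there were calls in both directions. By the gene ontology terms that the table gives, phragmoplast members had 14 higher and 14 lower of 54 (25.9% each). Preprophase band members had 3 higher and 8 lower of 20 (15.0% and 40.0%). Cytokinesis members had 9 higher and 4 lower of 34 (26.5% and 11.8%). Members with microtubule motor activity had 22 higher and 9 lower of 100 (22.0% and 9.0%). Over all loci the shares were 21.7% higher and 20.2% lower. The terms overlap and share loci, and these counts are a description.

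Markers of other cell states moved in the same libraries. Of 30 tested loci of a list for xylem with secondary walls (the secondary-wall cellulose synthases, COBRA-like 4, laccases and xylem proteases), 16 were lower and 2 higher by adjusted p, with a median log2FC of -0.69. The list summed to 220 to 343 FPKM at 0.5 mg/L NAA and 468 to 484 FPKM at 0.1 mg/L NAA, and none of its loci was at 0 in every library. The 2 higher loci were COBRA-like 4 at Niben261Chr06g1106012 (log2FC 0.77) and laccase-17-like at Niben261Chr16g0916014 (0.76). The lowest log2FC of the list, -4.04, was at another COBRA-like 4 locus, Niben261Chr06g1106013. It read 2.48, 0.85 and 0.30 FPKM at 0.5 mg/L NAA and 31.6, 34.9 and 30.7 FPKM at 0.1 mg/L NAA. Like SPIRAL1-like 5 and the 2 TPX2 loci, it was near or under 1 FPKM in at least 2 of the 0.5 mg/L libraries. This likeness was picked after the values were seen, and whether these loci share a cell type was not tested. Of 7 COBRA-like 4 loci tested, 4 were lower and 1 was higher by adjusted p. Of 46 tested loci of a list for green cotyledon cells 39 were lower by adjusted p, and the list summed to 2860 to 3850 FPKM at 0.5 mg/L NAA and 7632 to 8442 FPKM at 0.1 mg/L NAA. The part of these cell types in the falls of SPIRAL1, TPX2, MAP65-8, MAP70-5 and KIN-14F was not tested.

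Markers of dividing cells, histone H4 and mitotic cyclins, had 7 lower of 20 tested by adjusted p, with limma giving 0 higher also at an unadjusted p under 0.05, and summed to 755 to 963 FPKM at 0.5 mg/L NAA and 1545 to 1593 FPKM at 0.1 mg/L NAA. The median log2FC was -0.14. Both histone H4 loci and the 4 loci described as cyclin-B1-2-like, which hold most of that sum, were lower, with log2FC from -1.16 to -0.88, as was 1 cyclin C13-1-like locus (-0.44). The other 13 cyclin loci were not called, with log2FC from -0.27 to 0.25. With libraries rescaled to one total the list had 6 lower and 3 higher. Kinetochore and checkpoint proteins outside the member list had 3 lower and 1 higher of 20, which turned to 1 lower and 3 higher with libraries rescaled to one total. Cytokinesis proteins had 2 higher and 1 lower of 6, against 4 higher and 1 lower with libraries rescaled to one total and 0 higher and 1 lower after quantile normalization. These values stand beside 8 higher and 3 lower kinesins with roles in cell division, and the part of the number of dividing cells in either was not tested. Cortical array proteins outside the member list had 14 higher and 21 lower of 77 (21 and 14 with libraries rescaled to one total). Past both thresholds were 5 of these, all lower. They included 4 loci of IQ-DOMAIN proteins, which in Arabidopsis link calmodulin to cortical microtubules, with log2FC from -1.82 to -1.03. Other IQ-DOMAIN loci were higher by adjusted p, such as Niben261Chr13g0290009 (log2FC 0.65). The CLIP-associated protein and MOR1 loci were all higher by adjusted p, with log2FC from 0.43 to 0.57. The TONNEAU 1a-like loci were all lower, with log2FC from -0.50 to -0.40.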

How the data were processed

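Expression of 6 RNA-seq libraries was deposited as 1 table of FPKM values, with a protein description and gene ontology terms for each locus. The deposited FPKM were scaled by the authors for gene length and library size and rounded to hundredths. The libraries were made with a SMARTer mRNA-Seq kit per the labels. The aligner and counter of these 2-week libraries are not given in the sources used here. Read counts are not part of the table. A count model could not be used, and precision rests on the spread of 3 libraries.

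Sample titles gave the NAA concentration and the replicate. Loci averaging 0.5 FPKM or more were compared with limma 3.58.1 (mean-variance trend) in R 4.3.3 on log2(FPKM + 1), a scale that understates the change of weakly expressed loci. The Benjamini-Hochberg adjustment covered all 32443 loci tested. Loci past both thresholds had |log2FC| of 1 or more and adjusted p below 0.05. The procedure was tested on simulated libraries. Python 3.11.15, pandas 2.3.3 and matplotlib 3.10.9 were used for tables and figures.

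The members, classes and lists were chosen with earlier results of these data known. Some classes and list words were adjusted after the descriptions were read. The smaller families counted within classes were chosen after their descriptions and values were seen. Their shares beside those of all loci are a description only. The naming rule takes, in each class, the loci past both thresholds (at most 8), the locus with the highest mean FPKM and, in a class with none past both, the lowest adjusted p. All other loci named were chosen after their values were seen. Relative depth was read from the ratios of FPKM values between 0.1 and 1. Alternatives were the replicate number as a block, each library left out in turn, scaling to equal totals (TPM), by median-of-ratios or by quantile normalization, a pseudocount of 0.1, a filter at a mean of 1 FPKM or none, no trend and no fold threshold.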

Additional observations from a re-analysis of the deposited data

How the results depend on the processing

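The count of loci past both thresholds, 1 higher and 6 lower, moved to 3 higher and 9 lower with a pseudocount of 0.1, 2 higher and 4 lower with libraries rescaled to one total, 1 higher and 7 lower with median-of-ratios scaling and 3 higher and 8 lower after quantile normalization, and to 50 higher and 49 lower with no fold threshold. Without one library at a time it was 1 to 2 higher and 5 to 8 lower. The cause was not tested. All 7 loci past both thresholds kept their direction and an adjusted p under 0.05 in all 14 alternatives. With the replicate number as a replicate block the count remained 1 higher and 6 lower, and 28 of the 99 calls by adjusted p were lost. Deviations of libraries with the same number correlated at 0.02, 0.01 and 0.01, against -0.01 to 0.0003 for unlike numbers. Values this low cannot show whether the numbers pair samples, and the labels do not state it. Of the 99 calls, 21 were lost with libraries rescaled to one total, 20 after quantile normalization, which also turned 1 sign, and 15 to 37 without one library.

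The signs that turned belong to small differences: alpha-tubulin Niben261Chr01g1056004 (0.063 after quantile normalization), alpha-tubulin Niben261Chr04g0373007 (0.062 rescaled to one total and 0.228 after quantile normalization), cofactor B Niben261Chr08g0328007 (0.009 rescaled), WVD2-like 2 Niben261Chr09g1047006 (0.043 rescaled), NACK2 Niben261Chr19g0109005 (-0.045 after quantile normalization), and SPIRAL1-like 1 at Niben261Chr06g1109019 (-0.016 to 0.382 without one library) and Niben261Chr06g1109020 (-0.066 to 0.484 without one library). The number of reads behind a value, including those under 1 FPKM, is unknown. The smallest log2FC of a member past adjusted p was 0.25, at KIN-13A (Niben261Chr14g0686008), and no smaller difference among the members passed. This is not a fixed limit of detection. Outside the members, a kinetochore protein NUF2 locus passed in limma at a log2FC of 0.20 (Niben261Chr16g0104003, adjusted p = 0.044). Near-identical loci may share reads.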
